A study of Caenorhabditis elegans with 2 samples.

Results

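The UNC-62 peaks described here are those whose summit lies at the start of a protein-coding gene on chromosomes I to V of the C. elegans embryo. The rule uses the position of the summit and no measured value. A peak of the authors' IDR list (peaks that passed their irreproducible discovery rate step, build ce11) belongs when its summit lies within 500 bp, on either side, of the outermost annotated start of such a gene. There are 611 of these core start peaks among 2088 autosomal peaks (29.3%, exact 95% interval 27.3 to 31.3) and 2754 peaks in all. The other 1477 autosomal peaks serve as the comparison. The core start peaks reach the starts of 749 genes.

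The material was whole mixed-stage embryos, mixed sex, of strain OP600. This strain carries the mutation unc-119(ed3) and the integrated transgene wgIs600, which encodes UNC-62 with a TY1 EGFP FLAG tag and supplies an unc-119 rescue. There was 1 group with 2 biological replicates, both of this genotype, and no second condition. The lists therefore report on the tagged protein made from a transgene in a mixture of all embryonic cells, and a peak cannot be tied to a cell type. No depth of the libraries is stated, so a gene with no peak is not read as a gene that is not bound. Intervals are exact binomial 95% intervals for shares and order-statistic 95% intervals for medians, and they express counting error alone, since the list was made from both cultures together.

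UNC-62 is a TALE-class homeodomain protein, which in the worm represents the Meis and Prep proteins. Such proteins recognise the core site TGACAG and act together with PBC-class homeodomain partners (in the worm CEH-20 and CEH-40 among others) and Hox proteins, often from distal enhancers. In C. elegans, unc-62 is known for roles in embryonic patterning and in the migration and fate of cells, and in the adult intestine. Worm genes often lie close together. A pair of neighbours may start head to head and share the DNA between them, and some genes sit in operons, in which a promoter before the first gene drives a run of genes on the same strand.

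The windows below show the DNA at summits that carry the main contrasts of this account: strong peaks at single genes, with and without homeodomain sites, and strong peaks between divergent genes. Each reaches 50 bp to either side of the summit and is read 5′ to 3′ on the strand of the nearest gene, from RefSeq's sequence of WBcel235, which is the ce11 build. Capitals mark, on either strand, the homeodomain words described with the motifs further on (TGACAG among them), the repeat word GAGAGA, the word ACGCAG, the word CTGCGTC that overlaps it, and the word ACCGTA.
tlp-1 (chrIV:13704177-13704277, minus strand): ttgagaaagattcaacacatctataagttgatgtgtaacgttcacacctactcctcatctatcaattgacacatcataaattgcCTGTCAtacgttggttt
lin-36 (chrIII:8021150-8021250, minus strand): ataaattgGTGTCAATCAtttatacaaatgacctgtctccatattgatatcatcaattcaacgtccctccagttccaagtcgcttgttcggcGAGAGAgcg
C02D5.2 (chrIII:8556954-8557054, plus strand): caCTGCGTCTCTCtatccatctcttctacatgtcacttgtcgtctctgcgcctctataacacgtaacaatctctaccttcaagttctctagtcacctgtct
rpl-3 (chrIII:3867536-3867636, plus strand): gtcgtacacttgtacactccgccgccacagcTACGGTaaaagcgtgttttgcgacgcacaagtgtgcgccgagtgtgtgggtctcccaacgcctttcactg
rpl-12 and lin-54 (chrIV:13240652-13240752, minus strand): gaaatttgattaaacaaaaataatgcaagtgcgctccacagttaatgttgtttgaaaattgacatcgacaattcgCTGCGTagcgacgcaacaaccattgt
rpl-15 and K11H12.8 (chrIV:654881-654981, minus strand): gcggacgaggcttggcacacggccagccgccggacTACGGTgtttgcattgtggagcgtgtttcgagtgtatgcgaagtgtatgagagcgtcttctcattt
drr-2 and set-16 (chrIII:13643683-13643783, minus strand): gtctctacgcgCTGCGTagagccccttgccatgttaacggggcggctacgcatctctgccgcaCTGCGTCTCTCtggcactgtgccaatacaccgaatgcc
T26A8.4 and pdtf-1 (chrIV:8432913-8433013, minus strand): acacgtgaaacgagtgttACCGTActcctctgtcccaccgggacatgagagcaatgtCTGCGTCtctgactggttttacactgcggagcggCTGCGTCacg
All of them lie in intergenic sequence. The tlp-1 window holds TGACAG and that of lin-36 holds the composite site and GAGAGA. The C02D5.2 and drr-2 windows hold CTGCGTC with the other strand of GAGAGA overlapping its end. The rpl-3 and rpl-15 windows hold ACCGTA, that of T26A8.4 holds it with CTGCGTC, and that of rpl-12 holds ACGCAG. None of these 4 holds a homeodomain word. Every window shown holds a marked word, which strong peaks need not: those of C18G1.1, cdc-48.1 and his-37 hold none. Of all 611 core start peaks, 383 (62.7%) held neither GAGAGA nor any homeodomain word.

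Most core start peaks sat upstream of the gene. The summit was upstream of the nearest start in 526 of 611 peaks (86.1%, 83.1 to 88.7), and the median position was 171 bp upstream, with quartiles at 285 and 64.5 bp upstream. Counted in steps, 144 summits lay more than 100 and up to 200 bp upstream, 140 lay more than 200 and up to 300 bp upstream, and 115 lay 100 to 1 bp upstream. A further 81 lay 400 to 301 bp upstream and 46 lay 500 to 401 bp upstream. Downstream of the start there were 38 summits in the first 100 bp and 47 beyond, up to 500 bp. The number of summits thus peaked between 100 and 300 bp upstream and thinned out towards the upstream edge of the window.

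**Figure D1:**
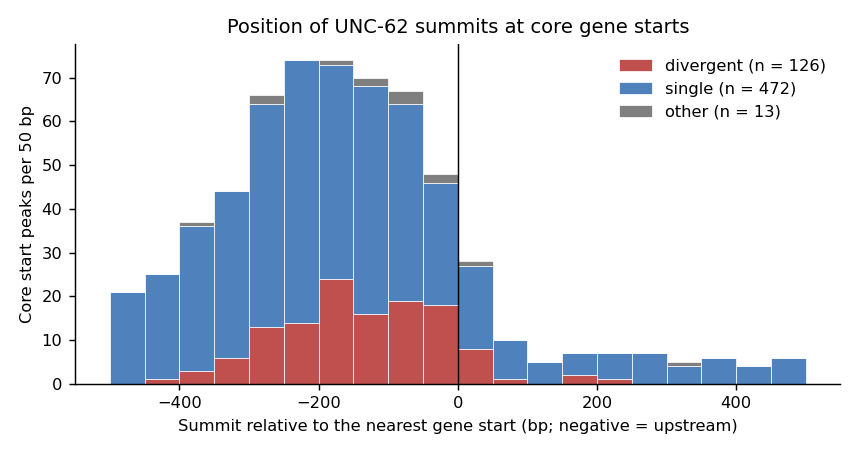
Number of core start peaks (y axis, per 50 bp) by signed distance from the summit to the nearest gene start (x axis, bp, negative upstream), stacked for 126 divergent, 472 single and 13 other peaks. Most of the 611 summits lie upstream, 526 in all, with the median 171 bp before the start.

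By annotation, 80.5% of core start summits were intergenic, against 59.3% of the other autosomal summits. Introns held 9.66% of core start summits (59 peaks) and 38.1% of the others. Parts of exons with no coding sequence, mostly 5′ untranslated, held 7.37% (45 peaks) against 1.56%. Coding sequence held 10 core start summits and 3′ untranslated regions held 5. These differences follow in part from the rule, since it asks for a nearby start. At the edge of the rule, the 27 peaks 451 to 500 bp from a start had a median signal of 103 and the 21 peaks 501 to 550 bp away had 110. The peaks just inside lay 499 bp upstream of lin-59 (signal 132), ttbk-7 (60.5) and T02E1.2 (149). Those just outside lay 501 bp upstream of ubql-1 (81.2), 505 bp upstream of srh-17 (104.1) and 507 bp upstream of pry-1 (174), so no step in signal marks the edge.

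At the top of the core start peaks stood the peak of tlp-1, a zinc finger transcription factor gene (WBGene00006580), on chromosome IV from 13704051 to 13704448, with its summit 145 bp before the start. Its signal, the value the authors' caller gave each peak, was 618. Its ranks were 6 for replicate 1 and 12 for replicate 2. It stood far above the next member, C18G1.1, annotated as an endoplasmic reticulum transmembrane protein (377, 164 bp upstream, ranks 27 and 64). After these came sor-1, a Sop-2-related gene (338, 496 bp upstream), scpl-3, a CTD small phosphatase-like gene (331, 36 bp downstream, in a non-coding exon part), and snf-11, which encodes a GABA transporter (324, in an intron 457 bp downstream). The tlp-1, sor-1 and snf-11 peaks were among the 100 strongest of both replicates, as were those of C18G1.1 and scpl-3.

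The other genes among the 15 strongest were of mixed function. They were C02D5.2, a GILT-like gene (signal 315), cdc-48.1, the p97-type ATPase (302), rpl-3 of the large ribosomal subunit (295), the histone H4 gene his-37 (290) and unc-112, the kindlin of muscle attachment sites (289). There followed lin-36, a synthetic multivulva gene (288), npr-5, a neuropeptide receptor gene (284, in an intron 363 bp downstream), and pptr-2, a regulatory subunit of protein phosphatase 2A (279). The last were icd-1, the beta subunit of the nascent polypeptide-associated complex (277), and sgn-1 of the sarcoglycan complex (269). All 15 were peaks at a single gene, and in 12 of them the summit was upstream of the start.

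As a set, core start peaks had a slightly lower signal than the other autosomal peaks. Their median signal was 88.7 (85.6 to 92.9), against 96.5 (94.2 to 99.6) for the others. Their signals ran from 60.1 to 618, and those of the others from 59.9 to 973. The ratio of medians was 0.919. Its range of 0.859 to 0.986 came from dividing opposite ends of the intervals of the medians. This range is neither an exact binomial nor an order-statistic interval, and its coverage was not computed. Core start peaks were 5 of the 50 strongest autosomal peaks (10%) and 18 of the 100 strongest. They were 39 of the 200 strongest (19.5%) and 129 of the 500 strongest (25.8%), beside 29.3% of all. Among the 200 weakest they were 67 (33.5%). The highest −log10 q of the list, shared by many peaks, was held by 37.5% of core start peaks and 44.6% of the others. The distributions overlapped over nearly their whole range. Among peaks above the median signal of the list the ratio was 0.992. That cut is made on the signal itself and draws the medians together, so it does not bear on the difference. With 1 list made from both replicates there is no test of this difference over samples.

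**Figure D2:**
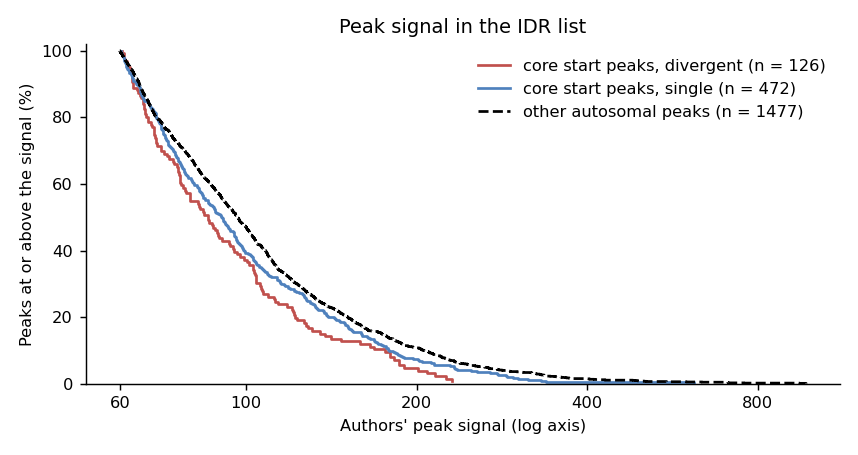
Share of peaks (y axis, %) at or above a given authors' peak signal (x axis, log scale) for divergent and single core start peaks and for other autosomal peaks. The curve of the 126 divergent peaks ends at 231, those of the 472 single peaks and the 1477 other peaks at 618 and 973.

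Median signal ranged from 78.2 to 98.7 over positions within the window and was highest farthest upstream. No interval was computed for these steps. The median was 98.7 for the 46 summits 500 to 401 bp upstream, 90.4 at 400 to 301 bp, 89.2 at 300 to 201 bp, 84.7 for the next 144 summits and 88.3 for the 115 within 100 bp upstream. It was 78.2 in the first 100 bp downstream and 92.5 farther in. Upstream summits as a whole had a median of 88.8 and downstream ones 88.7, and their intervals overlapped (85.6 to 93.2 and 76.3 to 104.2).

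Core start peaks stood more alone than other autosomal peaks. Another summit of the IDR list lay within 1000 bp of 7.20% of them (5.28 to 9.55), against 14.02% (12.3 to 15.9) of the others, and within 5000 bp of 34.7%, against 53.3%. Only 6 genes had 2 core start peaks, namely T09B4.5, Y95B8A.6, pde-6, ZK484.6, lec-5 and lgg-2, which encodes an Atg8-family autophagy protein. Y95B8A.6 and pde-6 are a divergent pair.

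Of the 611 peaks, 472 (77.3%) had a single gene start in reach, 126 (20.6%, 17.5 to 24.1) had exactly 2 starts that face away from each other, and 13 (2.13%) had another arrangement, such as unc-60 with F53E2.2. Divergent peaks had a median signal of 85.0 (76.9 to 93.6) and single peaks 90.4 (85.6 to 94.9), so the intervals overlapped. The upper end differed: the highest signal was 231 for divergent peaks and 618 for single peaks. None of the 15 strongest peaks was divergent.

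In 114 of the 126 divergent peaks (90.5%) the summit lay between the 2 starts. The starts were a median of 405.5 bp apart (12 to 900), against 475 bp for all 1665 head-to-head pairs on the autosomes whose starts are within 1000 bp. The nearer start was a median of 152.5 bp from the summit and the farther 289.5 bp. A divergent peak was found in 83 of 878 pairs with starts at most 500 bp apart (9.45%, 7.60 to 11.6) and in 42 of 787 pairs with starts farther apart, up to 1000 bp (5.34%, 3.87 to 7.15). The reach of 500 bp makes wider pairs harder to fill, so this difference is partly set by the rule.

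The strongest divergent peak (signal 231, ranks 152 and 241 in replicates 1 and 2) lay between rpl-12, a large ribosomal subunit gene 51 bp away, and lin-54, 342 bp away, which encodes the DNA-binding subunit of the DREAM complex. The next lay between rpl-15 and K11H12.8 (225, ranks 175 and 181), 355 and 459 bp from the starts. The third lay midway between drr-2, an RNA-binding protein gene, and set-16, which encodes a histone methyltransferase of the MLL type (215, 163 and 183 bp). Histone pairs had 2 of the next places, his-68 with his-67 (209) and his-32 with his-31 (186). The others were C17H12.2 with vha-8, a subunit of the vacuolar proton pump (201), ceh-38, a ONECUT homeobox gene, with malt-1, a paracaspase gene (190), and T26A8.4 with pdtf-1 (186). In these 8 pairs the summit lay between the starts except at ceh-38, where it was 37 bp inside the gene.

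Genes with a close head-to-head neighbour had a core start peak more often than genes without one. A peak was present at 749 of 17242 autosomal protein-coding genes, 4.34%, which is the background for all gene counts that follow. Among the 3378 genes with a head-to-head start within 1000 bp the share was 9.24% (8.28 to 10.3), against 3.15% (2.87 to 3.46) of the 13864 genes without. Head-to-head genes were 41.7% of genes with a core start peak and 19.6% of all genes. Since 1 divergent peak counts for both of its genes, the same was counted by pair. A core start peak was present at either gene in 177 of 1665 pairs (10.6%, 9.19 to 12.2) and at both genes in 130 (7.81%). A pair offers more than 1 start to a peak, so these shares cannot be set against the 3.15% or 4.34% counted by gene. No matching share was computed for genes without such a neighbour. How much of the excess by gene comes from shared peaks was therefore not tested.

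No annotation of operons was at hand, so position was read from spacing. A gene is called downstream-like when a gene on the same strand ends at most 300 bp before its start, or overlaps it, with no start on the other strand between. It is first-like when it is not downstream-like and a same-strand gene follows within 300 bp, and solo otherwise. First-like genes were 181 of the 749 genes with a core start peak (24.2%, 21.1 to 27.4), against 12.3% of all autosomal genes. Downstream-like genes were 53 (7.08%, 5.35 to 9.15), against 16.4% of all. Solo genes were 515 (68.8%), against 71.2%. Put as rates, a core start peak was present at 8.50% of first-like genes (7.35 to 9.77), 1.87% of downstream-like genes (1.40 to 2.44) and 4.19% of solo genes (3.85 to 4.56).

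The order by position was also seen among genes with no head-to-head neighbour. There the rate was 6.04% for first-like (4.86 to 7.39), 1.74% for downstream-like (1.28 to 2.30) and 3.13% for solo genes (2.79 to 3.49). Among genes with such a neighbour it was 13.7% for first-like, 7.25% for downstream-like and 8.13% for solo genes, and the downstream-like value rests on 5 of 69 genes. Of the 53 downstream-like genes with a peak, 16 start inside the body of another gene on the same strand. Downstream-like genes of that kind had a peak in 3.08% of cases (1.77 to 4.96) and those that follow a gene in 1.60% (1.13 to 2.20). With a spacing of 150 bp, downstream-like genes were 3.34% of genes with a peak against 11.6% of all, and with 500 bp they were 12.8% against 22.2%.

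**Figure D3:**
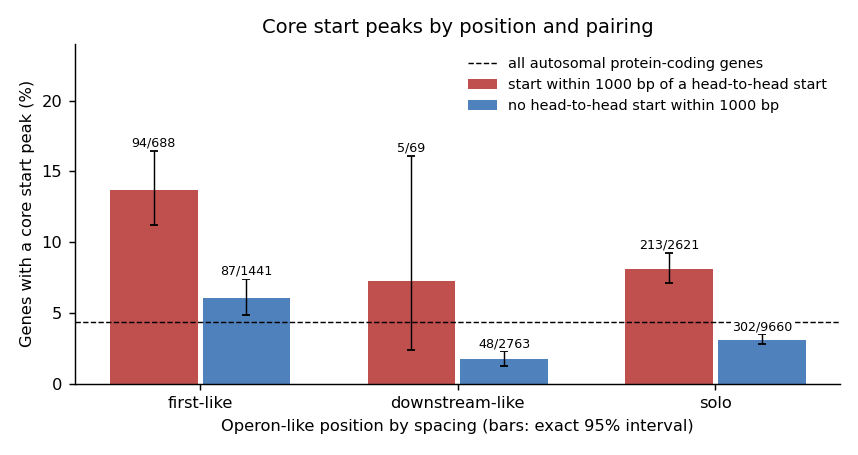
Share of autosomal protein-coding genes with a core start peak (y axis, %) by operon-like position (x axis) for genes with and without a head-to-head start within 1000 bp. Error bars are exact 95% intervals, numbers are genes with a peak of genes in the class, and the dashed line is the 4.34% of all genes.

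The strongest first-like genes were snf-11, lin-36, icd-1 and tasp-1, the last encoding the protease taspase (signal 256, 67 bp upstream). The strongest downstream-like genes were his-37 (290, 94 bp upstream), picc-1, which encodes a coiled-coil protein that binds PAC-1 (233, in an intron 169 bp downstream), tbc-6, a gene of the TBC family (179, 203 bp downstream) and unc-60, an actin depolymerising factor gene (171, 367 bp upstream). Median signal hardly differed with position, at 84.7 for peaks nearest a first-like gene (77.6 to 91.3), 91.7 for downstream-like (77.9 to 111) and 90.2 for solo (85.6 to 95.3).

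Genes of the cytosolic ribosome had the highest share with a core start peak among the 29 lists at the reach of 500 bp, but not at 250 bp. Of 79 autosomal genes named rpl or rps, 43 had one (54.4%, 42.8 to 65.7), against the 4.34% of all genes. The interval overlaps that of the next list, body wall muscle. The genes shared 41 peaks, of which 24 were divergent, against 20.6% of all core start peaks. By gene, 26 of the 43 had a divergent peak. First-like genes were 19 of the 43, beside 32 of all 79 genes of the list. How many genes of each list have a head-to-head neighbour is not given here, so divergent counts by list have no matching share. The median signal of the ribosomal genes was 97.8. After rpl-3 (ranks 69 and 92), rpl-12 and rpl-15 the strongest were rpl-35 (201, 453 bp upstream), rpl-20 (180, 288 bp upstream) and rps-19 (179, 295 bp upstream). At the low end were rpl-6 (60.3), which had no overlapping peak in the list of replicate 2, rps-21 (61.1) and rps-24 (65.6). Some pairs joined ribosomal genes of both subunits, such as rps-10 with rpl-24.1 (103) and rpl-39 with rps-30 (68.9). The list follows symbols and includes rpl-24.2, which is annotated as a putative ribosome biogenesis protein. All 29 lists follow symbols. Genes with a symbol of this style, letters and a number, were 69.8% of genes with a core start peak and 55.4% of all autosomal genes. The 4.34% covers genes with and without such a symbol, so it is a low background for the lists.

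Measured to the starts of the ribosomal genes themselves, the median position of their peaks was 288 bp upstream. This is not the measure behind the 171 bp for all core start peaks, which is taken to the nearest start. Of the 43 genes, 26 had a divergent peak, and over all 126 divergent peaks the farther start was a median of 289.5 bp from the summit. With a reach of 250 bp only 14 of the 79 genes (17.7%) had a peak, beside 2.59% of all genes, and both body wall muscle (20.5%) and the proteasome (18.2%) were then higher. The count and its place among the lists thus depend on the width of the window. Of the 43 genes, 40 had a peak among the 2754 strongest of replicate 1 and 35 among the 2754 strongest of replicate 2.

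Chaperones, respiratory chain and proteasome had intervals that lie above the 4.34% of all genes. Chaperones had 21 of 88 genes (23.9%, 15.4 to 34.1), 12 of them with a divergent peak. The strongest were hsp-1, a constitutive Hsp70 gene (205), cct-1 of the CCT chaperonin (176) and crt-1, the calreticulin gene (138). The chaperonin genes cct-5, cct-7 and cct-8 had divergent peaks, as did cct-1. The respiratory chain and ATP synthase had 9 of 39 (23.1%, 11.1 to 39.3), led by cox-5A (160), atp-3 (135) and atp-1 (104.3). The proteasome had 7 of 33 (21.2%, 8.98 to 38.9), of which 6 were divergent, led by rpn-5 (182), rpn-3 (121) and rpn-9 (104.1). The vacuolar proton pump had 3 of 17 (17.6%, 3.80 to 43.4), an interval that holds the background, with vha-8 (201), vha-1 (106) and vha-14 (82.5).

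Lists around translation and RNA were not uniform. Translation factors had 6 of 43 genes (13.95%, 5.30 to 27.9), led by iff-2 (168), eef-1A.1 (166) and eef-2 (131), which encode eIF5A and the elongation factors 1A and 2. Splicing and RNA-binding genes had 9 of 72 (12.5%, 5.88 to 22.4), though among peaks above the median signal their share was below that of all genes (1.39% against 1.90%). They were led by rsp-6 (137) and the divergent pair rsp-1 and rsp-2 (87.3), all SR proteins. Genes of tRNA synthetases had 2 of 32 (6.25%), ears-2 (85.6) and aars-1 (69.6). The mitochondrial ribosome had 2 of 70 (2.86%, 0.348 to 9.94), mrps-7 (88.3) and mrpl-49 (67.1), so its interval holds the background while that of the cytosolic ribosome lies far above it. The mrpl-49 peak is the 1 it shares with rpl-28 of the cytosolic ribosome.

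Histone and chromatin genes formed a further group. Of 77 histone genes 12 had a core start peak (15.6%, 8.32 to 25.6), on 8 peaks, and 9 of the 12 were divergent. Their median signal was 162. Core histone genes exist in near-identical copies, so reads cannot always be placed and single members are uncertain. Peaks at histone genes of distinct sequence were those of hil-7, a linker histone H1 gene (184), htz-1, the H2A.Z gene (141), and his-72, an H3.3 gene (65.2). Chromatin regulators had 11 of 54 genes (20.4%, 10.6 to 33.5), with lin-54 (231), set-16 (215) and lin-9 (107) the strongest.

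Body wall muscle was the tissue list with the largest share. Of 39 genes 13 had a core start peak (33.3%, 19.1 to 50.2), and none of the 13 was divergent. Beside unc-112 (ranks 103 and 69) they included pat-10, body wall troponin C (188, 130 bp downstream), unc-60, and hlh-1, the MyoD gene of the worm (160, 121 bp upstream). Other members, chosen after their values were seen, were unc-22, the twitchin gene (112.1), unc-15, the paramyosin gene (72.8), unc-54, a myosin heavy chain gene (64.9), and act-3, an actin gene (62.9). The median of the 13 was 73.1, below the 88.7 of all core start peaks. Replicate 2 ranked several of these low, with unc-15 at 5949, act-3 at 5038 and unc-54 at 4782, against 1400, 1576 and 1949 in replicate 1. In all, 11 of the 13 were among the 2754 strongest of replicate 1 and 8 among those of replicate 2. The mlc-3 peak had no overlapping peak in replicate 2.

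Wnt signalling had few genes but strong peaks. It had 4 of 28 genes (14.3%, 4.03 to 32.7), with a median signal of 174, and its interval holds the background, as do those of the neuronal and cell cycle lists. These were cwn-1, a Wnt ligand (183, 451 bp upstream), the Dishevelled genes mig-5 (176, shared with cct-1) and dsh-2 (172), and sys-1, a beta-catenin gene (76.6). Neuronal genes had 4 of 27 (14.8%, 4.19 to 33.7), led by unc-14 (244), unc-76 (86.4) and ehs-1 (62.4). For small GTPases and trafficking it was 10 of 105 (9.52%, 4.66 to 16.8), led by sec-61.G (233) and the divergent pair trap-3 and sec-61.B (103.7), all of the translocon. Cell cycle genes had 7 of 85 (8.24%, 3.38 to 16.2), with cdc-48.1, scc-1, a cohesin gene (182), and cdc-14, a phosphatase gene (149), the strongest.

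The intervals of the transcription factor families hold the background. Homeobox genes had 3 of 70 (4.29%), which turns to above the background with a reach of 250 bp (2.86% against 2.59%) or 1000 bp (8.57% against 6.11%), or with the starts of any transcript. They were ceh-38, the Hox gene lin-39 (88.3, 97 bp upstream) and zag-1 (60.6). The lin-39 peak ranked 916 in replicate 1 and 6282 in replicate 2. Nuclear hormone receptors had 8 of 246 (3.25%, 1.41 to 6.31), which is above the background without replicate 1 (4.47% against 4.20%), led by nhr-119 (146), nhr-49, a regulator of fat metabolism (134), and nhr-64 (107). Genes of basic helix-loop-helix factors had 4 of 31 (12.9%, 3.63 to 29.8), with hlh-1, aha-1 (118) and hif-1, the hypoxia factor (99.4), the strongest.

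For 7 of the smaller lists the interval held the background. Glycolysis had 2 of 16 genes, pyk-1 (137) and gpi-1 (64.7). Ubiquitin genes had 4 of 51, led by ubc-3 (176), ubc-25 (133) and ubq-1 (75.9), and cytoskeletal genes 4 of 74, led by tba-1 (94.7), tba-2 (75.5) and cap-2 (70.7). Epidermal genes had 3 of 38, the collagens dpy-14 (85.6), dpy-17 (71.3) and dpy-2 (71.2), and intestinal genes 1 of 24, aqp-2 (181). The list of microRNA and germline granule genes had 1 of 39, alg-2, an Argonaute gene (92.1). Cuticle collagens named col had 3 of 129 (2.33%, 0.482 to 6.65), col-38 (77.96), col-85 (71.3) and col-2 (69.4), and col-38 shares its peak with rpl-5.

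Chemosensory and F-box families had core start peaks least often. Only 4 of 1253 chemoreceptor genes had one (0.319%, 0.0870 to 0.815), and all 4 peaks were divergent. Among them were srh-2, shared with icl-1, the glyoxylate cycle enzyme (114), str-31 with nhr-172 (69.0) and sri-5 with rsr-1 (65.7). So none of the 4 had the peak to itself. F-box genes had 2 of 305 (0.656%, 0.0795 to 2.35), fbxb-88 (105) and fbxb-85 (60.5). C-type lectins had 4 of 237 (1.69%, 0.462 to 4.26), led by clec-196 (152), clec-264 (124) and clec-140 (87.2).

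**Figure D4:**
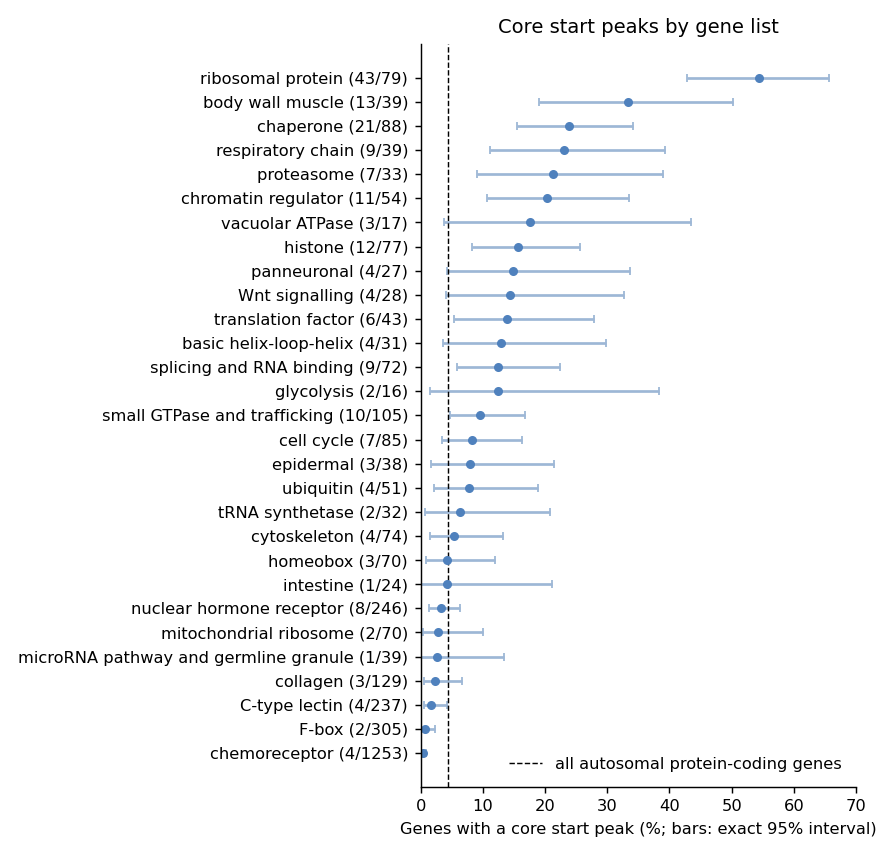
Share of the autosomal genes of each list with a core start peak (x axis, %), with counts beside the list names. Bars are exact 95% intervals and the dashed line is the 4.34% of all genes, above which the ribosomal protein list stands at 54.4% and below which the chemoreceptors stand at 0.319%.

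By chromosome, the share of genes with a core start peak was 6.29% on I (5.43 to 7.24), 5.80% on III (4.93 to 6.76) and 4.49% on II (3.83 to 5.24). It was 3.75% on IV (3.13 to 4.46) and 2.74% on V (2.31 to 3.23). Neighbours in this order have overlapping intervals, while V lies below I, II and III. With each chromosome cut into 3 parts of the same length, 5.11% of genes in the middle parts (4.59 to 5.67) and 3.87% in the outer ones (3.51 to 4.25) had a peak. Genes with a core start peak were longer than the other autosomal genes, with a median of 2358 bp (2177 to 2566) against 1951 bp (1925 to 1980).

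Each motif was searched as its letters on both strands, and a match is no proof of a bound site. The motifs, like the gene lists, were chosen with earlier results of these data known, so their contrasts are descriptions. Homeodomain sites were less frequent at core start summits than at other autosomal summits. TGACAG, on either strand within 50 bp of the summit, was present in 56 of 611 core start peaks (9.17%, 6.998 to 11.7), against 14.1% (12.3 to 15.96) of the other autosomal peaks. Among peaks above the median signal the intervals overlapped, at 12.5% (8.81 to 17.03) against 16.6% (14.01 to 19.4). It was present in 3.76% of windows 500 bp to the sides of core start peaks and in 3.21% of windows of the same length centred 100 bp upstream of all autosomal gene starts. The composite site, TGAT followed directly by TGACAG with at most 1 mismatch, was present in 1.96% of core start peaks (1.02 to 3.41) and 4.40% of the others (3.41 to 5.58), and in 0.574% of all starts. The PBC-Hox word TGATTGAT was present in 1.47% against 3.93%, and 0.766% of all starts, and TGATTTAT, whose intervals overlap, in 1.96% against 2.84%, and 1.23% of all starts. Any of these 4 was present in 13.3% of core start peaks (10.7 to 16.2) and in 22.1% (20.05 to 24.3) of the others. The composite site ends in TGACAG unless the mismatch falls there, so these words overlap.

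GA repeats were frequent at core start peaks, but less so than elsewhere. GAGAGA was present in 169 peaks (27.7%, 24.1 to 31.4), against 36.8% (34.3 to 39.3) of other autosomal peaks, 5.16% of the flanks and 9.08% of all starts. ACGCAG and the overlapping CTGCGTC, whose first 6 letters are its other strand, went the other way. ACGCAG was present in 20.8% of core start peaks (17.6 to 24.2), against 13.7% (12.03 to 15.6) of the others, 1.80% of flanks and 3.26% of all starts. Among peaks above the median signal its intervals overlapped, at 20.2% (15.6 to 25.5) against 15.7% (13.2 to 18.4), and so they did within 100 bp of the summit, at 28.6% (25.1 to 32.4) against 23.5% (21.4 to 25.7). CTGCGTC was present in 14.4% (11.7 to 17.4) against 10.4% (8.91 to 12.1), which overlap slightly, and in 1.85% of all starts. Core start windows had a median GC content of 46.5%, against 44.6% at other autosomal summits, 36.6% in their own flanks and 33.7% at all starts. The part of base composition in these shares was not tested.

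For each of the 4 remaining words the intervals of the peak sets overlapped. The E box CANNTG was present in 47.5% of core start peaks and 49.4% of the others (31.2% of all starts), and TATAAA in 4.09% and 4.20% (14.4% of all starts). The GATA word GATAAG was present in 3.601% (2.27 to 5.40) and 5.82% (4.68 to 7.14), beside 7.11% of all starts. TTTTCAG, which resembles the worm splice acceptor, was present in 2.13% (1.14 to 3.61) and 0.948% (0.519 to 1.59), against 13.5% of the flanks of core start peaks and 7.79% of all starts. Peaks with TGACAG had a median signal of 100.45 (91.6 to 114) and those without 87.5 (83.9 to 91.0). Peaks with an E box had 95.3 (88.3 to 101.5) and those without 84.5 (80.2 to 89.7). For the E box and every other word but TGACAG the intervals overlapped.

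Divergent peaks carried GA repeats less often than single ones. TGACAG was present in 6 of 126 divergent peaks (4.76%, 1.77 to 10.1) and 49 of 472 single peaks (10.4%, 7.78 to 13.5), so the intervals overlapped. The composite site was present in 0 of 126 divergent peaks, where the interval reaches 2.89%, and in 12 of 472 single peaks (2.54%). GAGAGA was present in 17.5% of divergent (11.3 to 25.2) and 30.1% of single peaks (26.0 to 34.4), which do not overlap. Of the 126 divergent peaks, 24 had a ribosomal protein gene, and GAGAGA was in 3 of the 41 ribosomal peaks. The contrast without ribosomal peaks was not computed. ACGCAG was present in 26.98% (19.5 to 35.6) and 18.9% (15.4 to 22.7), which overlap.

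Orientation did not differ from that at all gene starts beyond the intervals. Among single core start peaks with an upstream summit and GAGAGA on 1 strand only, it read GAGAGA on the gene strand in 33 of 109 (30.3%, 21.8 to 39.8), and TCTCTC in the rest. At all autosomal starts the share was 26.1% (23.9 to 28.4). CTGCGTC read along the gene strand in 40 of 59 (67.8%, 54.4 to 79.4), against 63.9% (58.4 to 69.2) of all starts with it.

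The ribosomal protein peaks differed in their words from the other core start peaks. None of their 41 windows held any of the 4 homeodomain words. GAGAGA was in 3 of them, against 166 of the other 570 core start peaks (29.1%). Homeodomain words were also absent from the 7 proteasome, 8 splicing, 11 chromatin regulator and 7 cell cycle peaks. Over all core start peaks the share with such a word was 13.3%, so lists this small can lack the words without differing. Whether the absence is particular to the ribosomal list was not tested. Each other list with 7 or more peaks held homeodomain words in 1 or 2 peaks. A search of all 2080 hexamers merged with their reverse complements was made after the words above. It placed ACCGTA among those most shifted from other autosomal peaks towards core start peaks, so the values of ACCGTA are a description only. It was present in 60 of 611 core start peaks (9.82%), against 1.62% of other autosomal peaks, 2.70% of flanks and 3.00% of all starts. Among ribosomal protein peaks it was present in 14 of 41 (34.1%) and among the remaining core start peaks in 46 of 570 (8.07%). Divergent peaks held it in 29 of 126 (23.0%) and single peaks in 29 of 472 (6.14%). Other words were shifted about as far from the other autosomal peaks. Among them were GACGCA (21.3% against 12.9%), which overlaps ACGCAG, and GCGCAC (11.8% against 3.86%). The hexamer with the largest excess in the ribosomal peaks was ACTCAG, present in 13 of 41 (31.7%) and in 18 of the other 570 core start peaks (3.16%).

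Core start peaks were among the strongest of replicate 2 less often than other autosomal peaks, with little difference in replicate 1. As a set they also had a lower signal, which bears on any cut by rank, and its part in this was not tested. The list itself was made from both replicates. All 611 were overlapped by a peak of replicate 1 and 601 by a peak of replicate 2. One of the 2754 strongest peaks of replicate 1 overlapped 88.2% of core start peaks (85.4 to 90.7) and 89.2% of the other autosomal peaks. For replicate 2 it was 75.6% (72.0 to 79.0) against 82.8% (80.8 to 84.7). Both held for 66.1% of core start peaks (62.2 to 69.9) and 73.1% of the others (70.7 to 75.3). Median ranks were 1500 in replicate 1 and 1548 in replicate 2, against 1322.5 and 1337.5 for the others.

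For the 601 core start peaks that both replicates hold, the signals of replicates 1 and 2 had a Spearman's rho of 0.579 and, as log2, a Pearson's r of 0.637. For 1465 other peaks the values were 0.634 and 0.718. These are correlations across peaks of the same libraries and carry no p. The 3 with the largest ratio between their ranks were all divergent and all low in replicate 2: krr-1 with gei-6 (ranks 1904 and 27987), eef-1B.1 with aco-2 (1772 and 27397) and uncp-18 with ears-2 (1030 and 15736). Their replicate 1 signals were 50.2, 52.7 and 70.7, and their replicate 2 signals 8.47, 8.57 and 11.3.

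**Figure D5:**
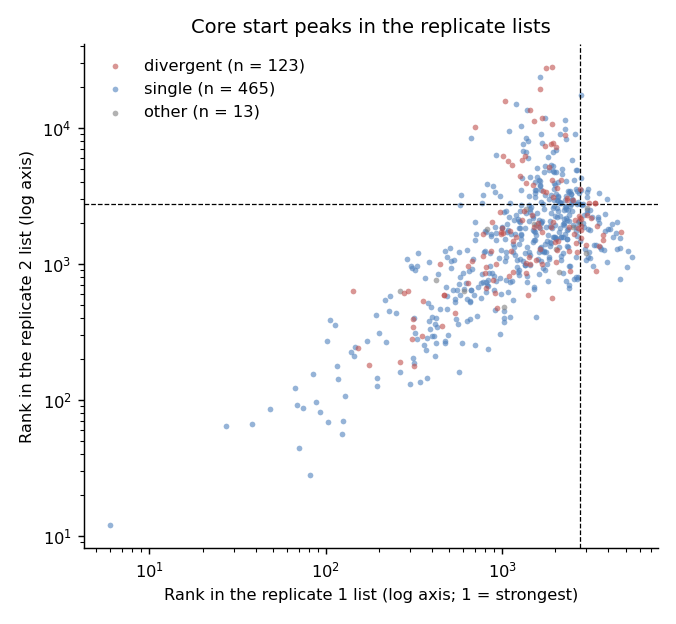
Rank of the best overlapping peak in the replicate 1 list (x axis) and the replicate 2 list (y axis), both on log scales with 1 the strongest, for the 601 core start peaks found in both. Dashed lines mark rank 2754, within which 66.1% of the 611 core start peaks lie in both lists, and the tlp-1 peak sits alone at ranks 6 and 12.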

How the data were processed

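The data are ChIP-seq peak lists for UNC-62 on build ce11. Per the deposited descriptions of the files, the IDR list came from a pooled list and both replicate lists (21749 and 30000 peaks), each called against a control. No control library is among the samples. The sources used here name no aligner, caller or threshold. Column 7 holds a signal and column 9 a −log10 q, both as the authors deposited them. Signals rank peaks within a list only.

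Genes and starts came from the Ensembl annotation of WBcel235 (release 115), and sequence and product names from RefSeq. Summits, shares, exact (Clopper-Pearson) intervals and motif hits were computed with Python 3.11.15, pandas 2.3.3, numpy 2.4.6 and scipy 1.17.1, and were tested on simulated data. No p was computed, since 1 list has no spread between samples. List genes follow symbols. The members, lists and motifs were chosen with earlier results of these data known.

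Named genes are those of the 15 strongest peaks, the 8 strongest pairs, the 3 strongest of each list, the 4 strongest first-like and downstream-like, the 3 to each side of 500 bp and the 3 with the largest ratio of ranks. Those outside this rule, and the word ACCGTA with the other hexamers, were chosen after their values were seen. Alternatives were other reaches, starts, spacings and motif widths, the stronger peaks, each replicate alone and overlapping peaks merged. A gene pair of 1 chemoreceptor peak is not reported here.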

Additional observations from a re-analysis of the deposited data

How the results depend on the processing

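Settings changed one at a time gave these values. Core start peaks were 29.3% of autosomal peaks as reported, and 18.68% with a reach of 250 bp, 40.09% with 1000 bp, 34.48% with the starts of any transcript and 26.2% among peaks above the median signal. For genes with a peak, 4.34% as reported, the same 4 settings gave 2.593%, 6.113%, 4.831% and 1.897%. Divergent peaks were 12.82% with 250 bp and 29.13% when any head-to-head neighbour within 1000 bp counted, and upstream summits 82.2% with 1000 bp. Downstream-like genes were 3.338% with a spacing of 150 bp and 12.82% with 500 bp, and 6.711% to 9.669% with either replicate left out. TGACAG was in 12.5% of the peaks above the median signal, in 4.583% within 25 bp of the summit and in 11.95% within 100 bp, and GAGAGA in 13.91% within 25 bp and 44.03% within 100 bp. Ribosomal protein genes were 17.72% with 250 bp and 27.85% among the peaks above the median signal. The ratio of signals was 0.9921 there, where the cut is made on the signal itself. Of 203 pairs of list and setting, 191 kept their side of the share of all genes and 12, in 10 of the 29 lists, did not. For the first-like share, the shares of the other 9 motifs and those of the other 28 lists, 250 of 286 alternatives stayed inside the interval reported. Chromosomes, gene length, spacing of peaks, head-to-head rates, hexamers and the contrast of divergent with single peaks were not recomputed. With no depth, a missing peak sets no limit. No paired analysis was possible because there is 1 group and no test.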
